A study of Mus musculus with 8 samples.

Results

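Semaphorins and ephrins are cell-surface or secreted guidance cues. They were measured, with their receptors, in mouse primary myoblasts, the cultured, dividing descendants of the stem cells of muscle. Members were all genes whose single annotated symbol names a semaphorin of classes 3 to 7, a plexin, a neuropilin, an Eph receptor or an ephrin. That gave 52 of the 19938 genes on the arrays: 20 semaphorins, 9 plexins, 2 neuropilins, 13 Eph receptors and 8 ephrins. Where a gene had several probe sets, the one with the highest mean over the 8 arrays was used.

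Each of the 8 arrays carries RNA of 1 sample, 4 labelled Runx1f/f and 4 labelled WT, with replicate numbers 1 to 4 under each label. Both kinds of cells came from gastrocnemius satellite cells of C57bl/6 mice aged 2 to 3 weeks, were kept on Matrigel in a proliferation medium and received no other treatment in the labels. Runx1f/f denotes a conditional (floxed) allele of the transcription factor gene Runx1, and the treatment label speaks of KO cells. How the allele was recombined, and whether biological replicates are separate animals, the labels do not say, so p-values measure only the spread between these samples. The arrays were compared as numbers 2 and 3 (2 arrays of each label) against numbers 1 and 4 (2 of each label). Results of these same arrays had picked that split, so its p-values describe how far the sides stand apart against the spread between arrays and test no condition. A further limit touches every value below: each sample also carries a source number, and were the 8 value columns laid out by rising source number instead of under their headers, all numbers 2 and 3 columns would be Runx1f/f and all numbers 1 and 4 columns WT. Headers and labels do not settle this, so arrays are named as labelled and no difference is read as an effect of genotype or as its absence.

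A plexin is the signalling receptor for most semaphorins. Class 3 semaphorins are secreted and mostly bind a neuropilin that presents them to a plexin, while the other classes studied here are tethered to the membrane. Eph receptors are tyrosine kinases that bind ephrins on neighbouring cells. The A ligands hang from a lipid anchor and the B ligands span the membrane, and both sides of a contact can signal. In muscle these families are known for guiding motor axons and for the repulsion and movement of myogenic cells.

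All values are log2 intensities of the deposited table, and each difference is numbers 2 and 3 minus numbers 1 and 4. A gene is called when its limma adjusted p over all genes is under 0.05. Per-array values are listed in the order Runx1f/f 2, Runx1f/f 3, WT 2 and WT 3 for numbers 2 and 3, and Runx1f/f 1, Runx1f/f 4, WT 1 and WT 4 for numbers 1 and 4. Because each probe set has its own response, levels are compared only within a gene. The deposited columns are not independent: in every row the mean of the 4 WT columns, of Runx1f/f 1 and 2 and of Runx1f/f 3 and 4 is the same within 7.5e-05, and the fit spends a term on each of these 3 sets. That equality fixes the comparison of the labels themselves. No member differed by more than 5.0e-06 between arrays labelled Runx1f/f and arrays labelled WT, and limma called 0 of 19938 genes, with 0 at an unadjusted p under 0.05. Were the columns laid out by rising source number, each of the 3 column sets would hold both genotypes in equal number. Their source numbers would be 139 to 142, 160 and 161, and 181 and 189. Which layout is right was not tested. In fits with 1 Runx1f/f array left out, the other array of its column set fits its own term and adds nothing to the difference.

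Of the 52 members, 13 were called, 6 higher and 7 lower in numbers 2 and 3. Over all genes 6.1% were called, 3.69% higher and 2.41% lower, against 25.0% of the members. Among genes with a mean of at least 5, the share called was 11.4%, against 8 of 26 such members. The median absolute difference was 0.15 over the members and 0.065 over all genes, and the median difference was 0.04 over the members and -0.0064 over all genes. Semaphorins made up 8 of the 13 calls, Eph receptors 3 and plexins 2. The counts of 0 of 8 ephrins and 0 of 2 neuropilins are near the 6.1% of all genes and set neither family apart. Only 3 of the 8 ephrins had a mean of at least 5. The numbers 2 and 3 arrays did not overlap the numbers 1 and 4 arrays in 19 of the 52 members (36.5%), 8 higher and 11 lower, against 20.4% of all genes (9.87% higher and 10.5% lower). Those 19 include all 13 called members. Sides that do not overlap over the 8 arrays are by that alone apart within each label. Shifts of at least 1.5-fold without overlap were seen in 6 members, 3 each way, against 2.88% of all genes (2.16% higher and 0.727% lower).

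**Figure D1:**
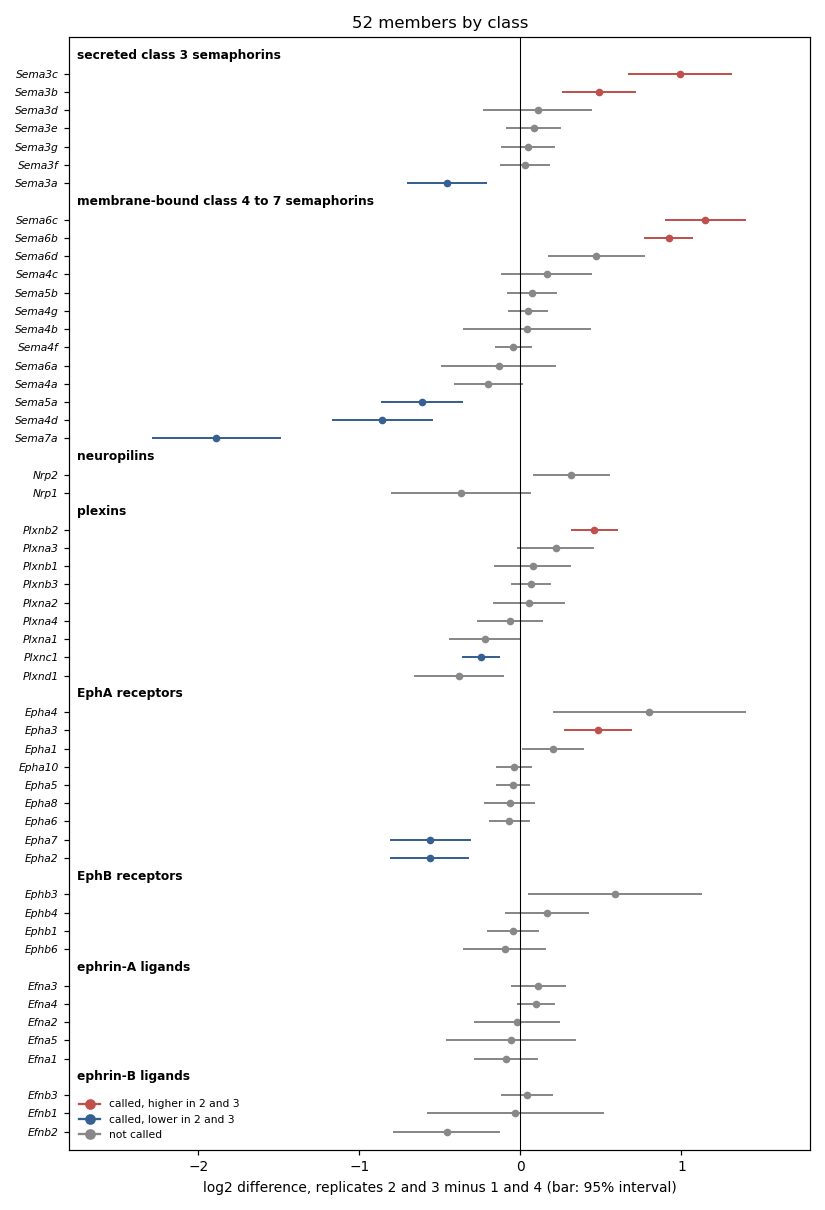
Difference in log2 intensity between replicate numbers 2 and 3 and numbers 1 and 4 for the 52 members, grouped by class; points are differences and bars 95% intervals of the limma fit. Semaphorins hold both ends, Sema6c at 1.15 and Sema7a at -1.89. No ephrin is called, which for 8 genes is near the 6.1% of all genes.

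Among the secreted semaphorins, 2 were higher and 1 was lower in numbers 2 and 3. Sema3c, a ligand for neuropilins, read 6.44, 6.63, 6.72 and 6.95 in numbers 2 and 3, against 5.94, 5.75, 5.52 and 5.57 in numbers 1 and 4. All arrays of the first side were above all of the other, and both the highest and the lowest reading were in arrays labelled WT. The difference was 0.99 ± 0.14 (SE), or 1.99-fold (adjusted p = 0.00842).

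Sema3b, another neuropilin ligand, read 6.32, 6.37, 6.23 and 6.55 in numbers 2 and 3, against 5.93, 5.88, 6.01 and 5.71 in numbers 1 and 4. The sides did not overlap and were closest in WT 2 and WT 1, with a difference of 0.49 ± 0.09 (SE, adjusted p = 0.0272). That call was lost without WT 3, WT 4 or any Runx1f/f array (adjusted p 0.0602 to 0.0803). Sema3a, which repels axons through Nrp1 and A-type plexins and is released by satellite cells, went the other way. It read 9.47, 9.54, 9.34 and 9.20 in numbers 2 and 3, against 9.76, 9.69, 9.90 and 10.02 in numbers 1 and 4, with no overlap. Its difference of -0.46 ± 0.10 (SE, adjusted p = 0.0459) is the closest of the 13 to the threshold, and the call was lost without any one of the 4 WT arrays, at an adjusted p of 0.109 to 0.131, and without Runx1f/f 1 or Runx1f/f 2, at 0.0727. The other 4 class 3 genes differed by 0.03 to 0.11 and were not called. Among them Sema3e, which binds Plxnd1 without a neuropilin, averaged 10.47 ± 0.09 in numbers 2 and 3 and 10.39 ± 0.09 in numbers 1 and 4 (SD, n = 4 each).

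Sema3d and Sema3a are neighbours on chromosome 5 with 0 coding genes between them, and Sema3b and Sema3f on chromosome 9 have 3 between them. Only 1 gene of each pair was called: Sema3d differed by 0.11 beside -0.46 for Sema3a, and Sema3f by 0.03 beside 0.49 for Sema3b. The difference between the genes of a pair was not tested.

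The neuropilins, co-receptors for the class 3 ligands, were not called. Nrp1 read 7.55, 7.62, 6.95 and 7.37 in numbers 2 and 3, against 7.57, 7.49, 8.05 and 7.85 in numbers 1 and 4. The sides overlapped, with a difference of -0.37 ± 0.18 (SE, adjusted p = 0.342). It was 0.05 within arrays labelled Runx1f/f and -0.79 within arrays labelled WT. Nrp2 read 4.62, 4.60, 4.83 and 4.81 in numbers 2 and 3, against 4.50, 4.52, 4.18 and 4.40 in numbers 1 and 4. Its sides did not overlap, yet the difference of 0.32 ± 0.10 (SE) did not pass (adjusted p = 0.124).

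Of the 13 membrane-bound semaphorins, 2 were called higher and 3 lower. That share of 38.5% stands beside 42.9% of the secreted class and 6.1% of all genes. Sema6c, a transmembrane semaphorin, read 7.28, 7.10, 7.01 and 7.36 in numbers 2 and 3, against 5.95, 6.12, 6.18 and 5.90 in numbers 1 and 4. The sides were far apart relative to the spread within them, with a difference of 1.15 ± 0.10 (SE), or 2.22-fold (adjusted p = 0.00195). Within arrays labelled Runx1f/f the difference was 1.15, and within arrays labelled WT it was 1.14.

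Sema6b, of the same class, read 7.46, 7.48, 7.43 and 7.53 in numbers 2 and 3, against 6.56, 6.55, 6.43 and 6.66 in numbers 1 and 4. Its SDs were 0.04 in numbers 2 and 3 and 0.09 in numbers 1 and 4, and its difference of 0.92 ± 0.06 (SE), or 1.89-fold, had the smallest adjusted p of any member (0.000574). The 2 annotated rows for Sema6b hold the same 8 values and were counted once. Sema6d averaged 5.57 ± 0.19 in numbers 2 and 3 and 5.10 ± 0.18 in numbers 1 and 4 (SD, n = 4 each) and was not called (adjusted p = 0.079), and Sema6a differed by -0.13 (adjusted p = 0.739).

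In the opposite direction lay Sema7a, a lipid-anchored semaphorin that binds Plxnc1 and beta-1 integrins. It read 4.71, 5.25, 5.17 and 4.96 in numbers 2 and 3, against 7.22, 6.68, 7.05 and 6.69 in numbers 1 and 4. No array of the first side came within 1 log2 unit of the other, and the difference of -1.89 ± 0.17 (SE), or 3.70-fold, was the largest among the members (adjusted p = 0.00187).

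Sema4d, a ligand of Plxnb1, read 4.08, 3.72, 4.21 and 3.89 in numbers 2 and 3, against 4.73, 5.09, 4.81 and 4.71 in numbers 1 and 4. The sides did not overlap, and the difference was -0.86 ± 0.13 (SE, adjusted p = 0.0127). A second, dimmer probe set of Sema4d differed by -0.19 and was not called (adjusted p = 0.49), so the gene's 2 probe sets disagree in size. Sema5a, a transmembrane semaphorin with thrombospondin repeats, read 3.88, 3.70, 4.07 and 3.93 in numbers 2 and 3, against 4.53, 4.70, 4.47 and 4.33 in numbers 1 and 4. Its sides were also apart, by -0.61 ± 0.11 (SE, adjusted p = 0.019). Both Sema4d and Sema5a are dim, with means of 4.41 and 4.20 beside array medians of 4.39 to 4.41. Without WT 3 neither Sema4d (adjusted p = 0.054) nor Sema5a (0.0669) was called, and without Runx1f/f 1 or Runx1f/f 2 Sema5a was not (0.0601). The 8 membrane-bound genes not called differed by -0.20 to 0.47.

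**Figure D2:**
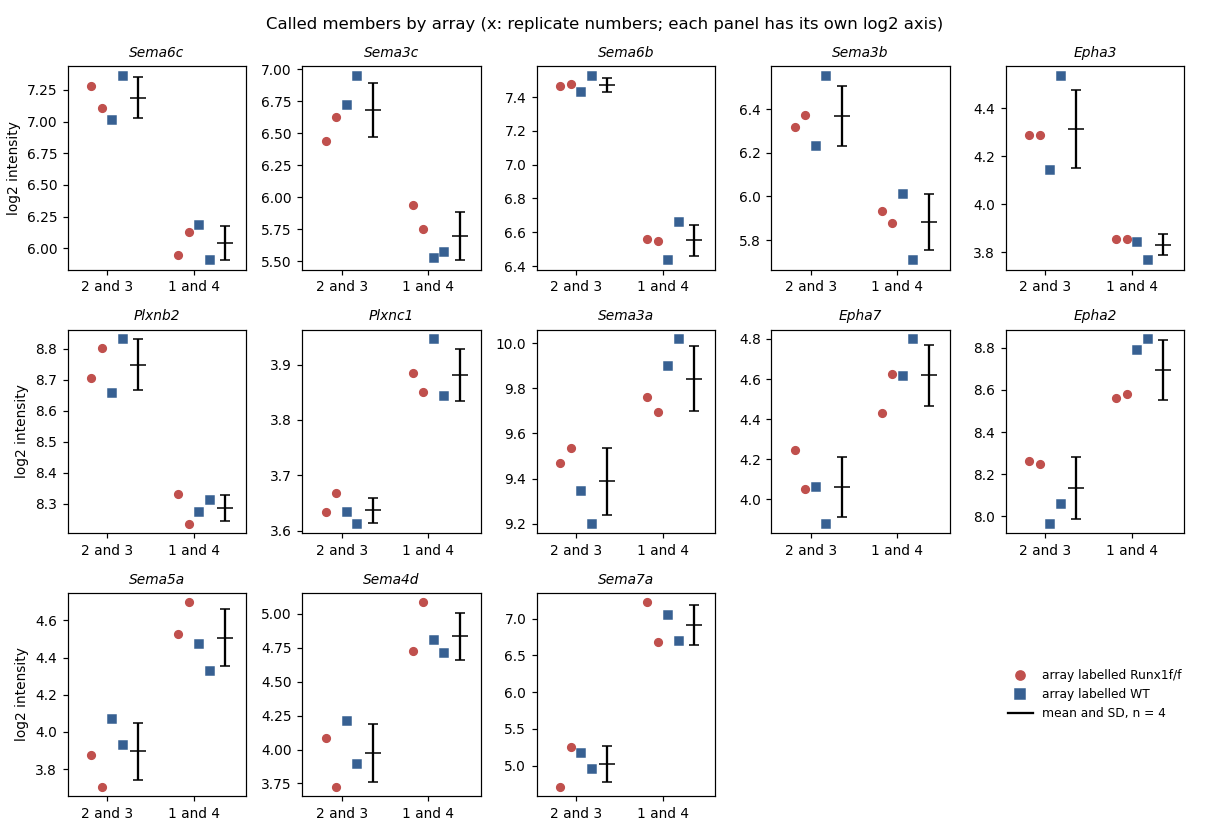
Log2 intensity of the 13 called members on each array, with replicate numbers 2 and 3 left of numbers 1 and 4; circles are arrays labelled Runx1f/f, squares arrays labelled WT, and bars show the mean and SD of 4 arrays. In each panel, which has its own axis, arrays of both labels lie together on each side and the sides do not overlap.

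Promoter sequence is shown for Sema7a, Sema6c and Sema6b, the members with the largest fall, the largest rise and the smallest adjusted p. Each window runs from 250 bases before to 50 bases after a RefSeq start in GRCm38.p6, 5′ to 3′ on the gene's strand. Letters of 3 motifs are in capitals, chosen because the series title names Runx1, MyoD and c-Jun: TGTGGT or TGCGGT (the Runx core), CAGCTG (an E-box that MyoD can bind) and TGANTCA (AP-1), each searched on both strands and with no overlap between motifs here. The Sema7a window is chr9:57939862-57940161 on the + strand. For Sema6c it is chr3:95164089-95164388 on the + strand, and for Sema6b chr17:56133803-56134102 on the - strand. Sema6c and Sema6b each have another listed start whose window holds 0 of these motifs, so the windows shown are those with a match.
Sema7a: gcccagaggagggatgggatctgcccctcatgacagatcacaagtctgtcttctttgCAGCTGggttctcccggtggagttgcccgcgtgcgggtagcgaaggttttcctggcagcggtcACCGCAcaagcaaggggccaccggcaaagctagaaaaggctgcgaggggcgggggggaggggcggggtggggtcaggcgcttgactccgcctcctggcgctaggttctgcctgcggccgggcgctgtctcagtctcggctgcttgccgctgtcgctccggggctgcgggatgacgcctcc
Sema6c: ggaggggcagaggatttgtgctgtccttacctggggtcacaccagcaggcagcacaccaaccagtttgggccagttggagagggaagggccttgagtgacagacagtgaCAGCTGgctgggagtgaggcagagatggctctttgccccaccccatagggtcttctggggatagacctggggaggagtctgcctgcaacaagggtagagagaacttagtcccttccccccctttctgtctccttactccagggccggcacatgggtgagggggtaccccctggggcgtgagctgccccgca
Sema6b: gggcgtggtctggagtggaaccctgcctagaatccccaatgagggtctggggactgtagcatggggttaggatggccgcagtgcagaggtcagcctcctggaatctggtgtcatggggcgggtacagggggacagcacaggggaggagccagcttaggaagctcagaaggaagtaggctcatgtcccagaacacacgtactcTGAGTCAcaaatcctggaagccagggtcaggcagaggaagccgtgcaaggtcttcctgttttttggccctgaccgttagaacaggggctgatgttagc
The window shown for Sema7a thus holds 1 Runx core, on the reverse strand, and 1 CAGCTG, that for Sema6c 1 CAGCTG, and that for Sema6b 1 TGANTCA. Promoters were listed for 46 of the 52 members, 60 windows in all. Of these windows 23.3% hold a Runx core, 15% CAGCTG and 5% TGANTCA, close to the 22.4%, 16.3% and 7.81% of all 32851 windows. Among called members with a window, a Runx core is present for 0 of 5 higher and 3 of 7 lower in numbers 2 and 3 (Sema7a, Sema4d and Sema3a), beside 11 of 34 members not called and 25.0% of all genes with a window, and a match is a description, not a site or a cause. For Sema4d the core lies in only 1 of its listed windows, and genes with several windows have more room for a match.

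Among the 9 plexins, 1 was higher and 1 lower. Plxnb2, a receptor for class 4 semaphorins, read 8.71, 8.80, 8.66 and 8.83 in numbers 2 and 3, against 8.33, 8.24, 8.27 and 8.31 in numbers 1 and 4. The 8 readings form 2 tight, separate sets, 0.46 ± 0.06 (SE) apart (adjusted p = 0.00732), and the difference was 0.47 within arrays labelled Runx1f/f and 0.45 within arrays labelled WT. Sema4c, a ligand of Plxnb2, was not called at 0.16 (adjusted p = 0.558).

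Plxnc1, the plexin that binds Sema7a, read 3.63, 3.67, 3.63 and 3.61 in numbers 2 and 3, against 3.88, 3.85, 3.95 and 3.84 in numbers 1 and 4. It was lower on the same side as its ligand, but by only -0.24 ± 0.05 (SE, adjusted p = 0.0299) at a dim probe set, and the call was lost with any 1 array left out (adjusted p 0.0542 to 0.105). The 7 other plexins differed by -0.38 to 0.22. Plxna1, a partner of the neuropilins, averaged 8.36 ± 0.10 in numbers 2 and 3 and 8.58 ± 0.15 in numbers 1 and 4 (SD, n = 4 each, adjusted p = 0.243). Plxnd1, the Sema3e receptor, read 5.62, 5.86, 5.68 and 5.92 in numbers 2 and 3, against 6.30, 6.05, 5.93 and 6.31 in numbers 1 and 4, and its difference of -0.38 did not pass although the sides did not overlap (adjusted p = 0.115). Plxnb1, the Sema4d receptor, differed by 0.08 (adjusted p = 0.779).

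Among the 9 EphA receptors, 1 was higher and 2 were lower. Epha2 read 8.26, 8.25, 7.96 and 8.06 in numbers 2 and 3, against 8.56, 8.58, 8.79 and 8.84 in numbers 1 and 4. The sides were separate by -0.56 ± 0.10 (SE, adjusted p = 0.0217), with the WT arrays outermost on both. Epha7, which myogenic cells carry during differentiation, read 4.25, 4.05, 4.06 and 3.88 in numbers 2 and 3, against 4.43, 4.62, 4.62 and 4.80 in numbers 1 and 4. It too was lower without overlap, by -0.56 ± 0.11 (SE, adjusted p = 0.0247). Epha3 read 4.29, 4.29, 4.14 and 4.54 in numbers 2 and 3, against 3.86, 3.86, 3.84 and 3.77 in numbers 1 and 4. It was higher by 0.48 ± 0.09 (SE, adjusted p = 0.0214), with a wider spread on the higher side. Both Epha7 and Epha3 are dim, with means of 4.34 and 4.07 beside array medians of 4.39 to 4.41. Leaving out 1 array ended the call of Epha2 for each of the 4 WT arrays (adjusted p 0.0592 to 0.0837). For Epha7 it did so for each WT array and for Runx1f/f 3 or 4 (0.0628 to 0.0778), and for Epha3 for WT 1, WT 4 and each Runx1f/f array (0.0503 to 0.0857).

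The widest difference among members not called was in Epha4, a receptor for both ephrin classes, named after its values were seen. It read 5.77, 5.35, 4.83 and 5.15 in numbers 2 and 3, against 3.97, 4.40, 4.87 and 4.64 in numbers 1 and 4. The sides overlapped through WT 2 and WT 1, and the difference of 0.80 ± 0.25 (SE) did not pass (adjusted p = 0.126). It was 1.37 within arrays labelled Runx1f/f and 0.23 within arrays labelled WT, a contrast between labels that was not called over all genes (interaction adjusted p = 0.227).

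Of the 4 EphB receptors, 0 were called, and Ephb3 differed the most. It read 6.78, 6.61, 6.17 and 6.30 in numbers 2 and 3, against 5.56, 5.73, 6.48 and 5.73 in numbers 1 and 4. Only WT 1 broke the separation, and the difference was 1.04 within arrays labelled Runx1f/f and 0.13 within arrays labelled WT (0.59 ± 0.23 (SE) over both, adjusted p = 0.206, interaction adjusted p = 0.404). Without WT 1 Ephb3 was called, at 0.83 (adjusted p = 0.0251), as it was within arrays labelled Runx1f/f alone (adjusted p = 0.0392), and without Runx1f/f 1 or 2 the difference was 0.38 (adjusted p = 0.496). Ephb4, the main receptor of Efnb2 in vessels, averaged 6.60 ± 0.17 in numbers 2 and 3 and 6.43 ± 0.15 in numbers 1 and 4 (SD, n = 4 each, adjusted p = 0.511).

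No ephrin was called, and the 5 ephrin-A genes differed by -0.09 to 0.11. Efna5 read 5.49, 5.73, 5.08 and 5.38 in numbers 2 and 3, against 5.40, 5.17, 5.65 and 5.69 in numbers 1 and 4. The arrays labelled Runx1f/f were higher and those labelled WT lower on the first side, so that the difference was 0.32 and -0.44 by label and -0.06 ± 0.17 (SE, adjusted p = 0.921) over both. Efna3, whose difference was the widest of the ephrin-A genes at 0.11, averaged 3.43 ± 0.08 in numbers 2 and 3 and 3.32 ± 0.09 in numbers 1 and 4 (SD, n = 4 each, adjusted p = 0.481). Efna1, Efna3 and Efna4 stand next to each other on chromosome 3 with 0 coding genes between neighbours, and they differed by -0.09, 0.11 and 0.10.

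Efnb2, a B ligand, read 7.41, 7.23, 7.25 and 7.16 in numbers 2 and 3, against 7.57, 7.75, 7.47 and 8.09 in numbers 1 and 4. All arrays of the first side were lower, and the difference of -0.46 ± 0.14 (SE) did not pass (adjusted p = 0.115). Efnb1 read 6.04, 6.33, 5.64 and 5.57 in numbers 2 and 3, against 5.78, 5.49, 6.15 and 6.28 in numbers 1 and 4. Here the labels went opposite ways, 0.55 within arrays labelled Runx1f/f and -0.61 within arrays labelled WT, and the interaction had the smallest adjusted p of the members at 0.0982. The same crossing, with the sides apart within each label but in opposite order, was seen in 3 members, Efnb1, Efna5 and Plxna2, and in 8.31% of all genes, so the count is not particular to the members. At an unadjusted p under 0.05, 12 of the 52 members and 9.58% of all genes showed a difference between labels in that term, and 0 members and 35 genes passed after adjustment.

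**Figure D3:**
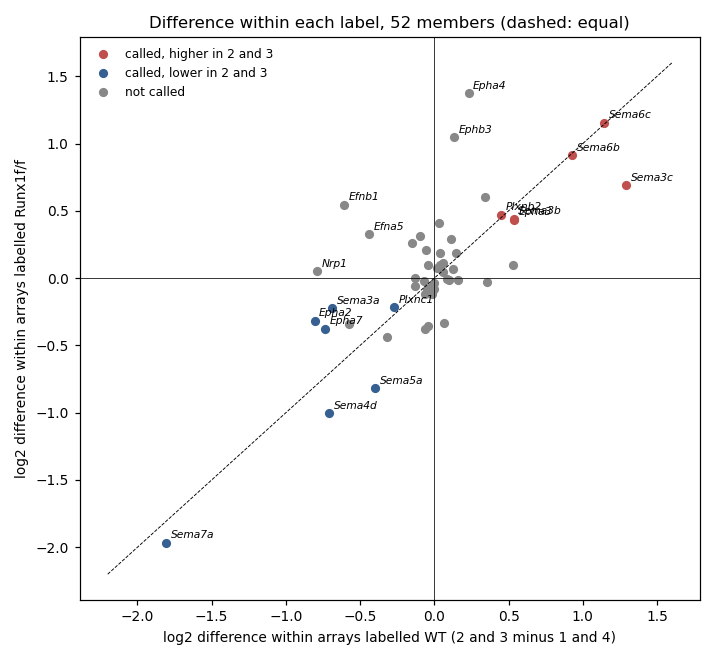
Difference between replicate numbers 2 and 3 and numbers 1 and 4 within arrays labelled WT (x axis) and within arrays labelled Runx1f/f (y axis), in log2 units, 1 point per member. The 13 called members lie in the quadrants where both labels share a sign, as sides without overlap must. Epha4 and Ephb3 are near 0 only on the x axis, and Efnb1 and Efna5 have opposite signs.

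**Figure D4:**
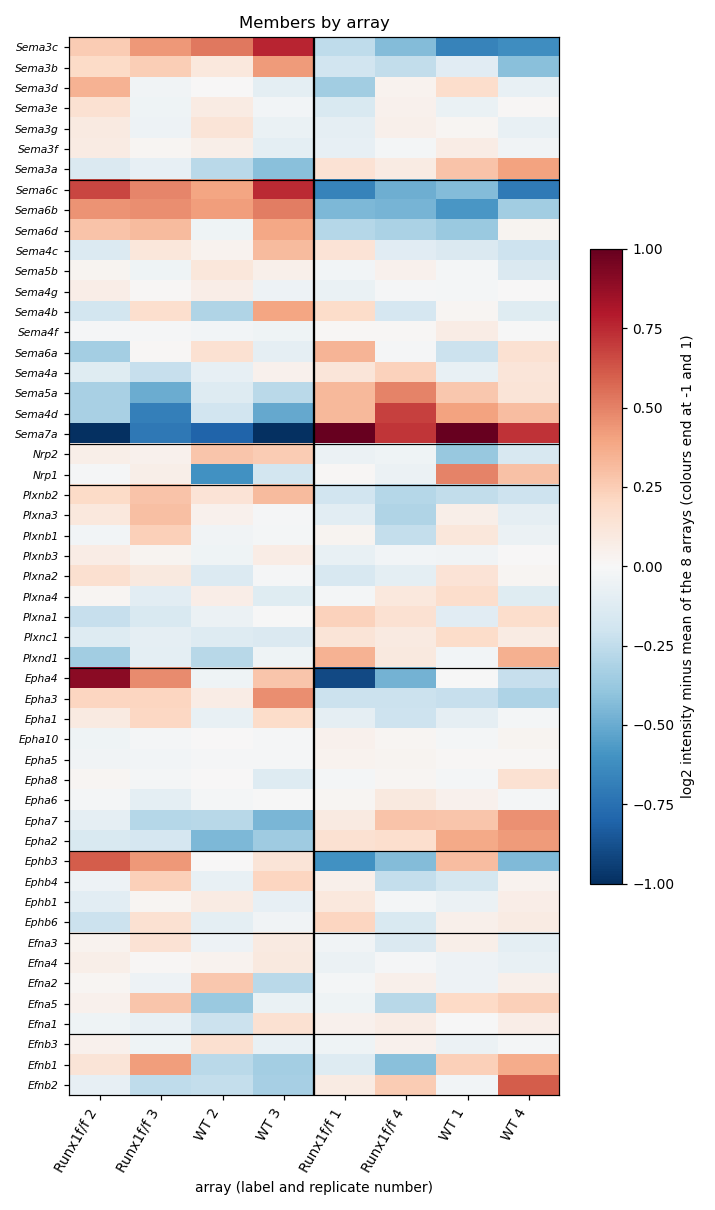
Log2 intensity of each of the 52 members on each array minus its mean over 8 arrays, with replicate numbers 2 and 3 left of the vertical line and numbers 1 and 4 right of it, rows grouped by class in the order used in the plot of differences. Sema6c, Sema6b and Sema3c are above their mean on the left and below it on the right, Sema7a is the reverse, and the rows of most ephrins stay near 0.

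Downstream of these receptors, the shares called were read against 6.1% of all genes and 11.4% of genes with a mean of at least 5. In a list of 38 measured effectors of plexins and neuropilins, 2 were higher and 1 lower, a share of 7.89%, with a median difference of -0.0048. Mical1, an actin-oxidising enzyme that acts below A-type plexins, differed by 0.63 ± 0.08 (SE, adjusted p = 0.00732), and Limk1, a kinase that inactivates cofilin, by 0.46 ± 0.10 (adjusted p = 0.0409). Rnd1, a protein that binds plexins, was lower by -0.32 ± 0.07 (adjusted p = 0.0404). The widest difference of the list was in Dpysl3, of the collapsin response mediator family that acts below Sema3a, named after its values were seen. It read 9.38, 9.45, 7.94 and 7.73 in numbers 2 and 3, against 8.70, 8.64, 10.42 and 10.07 in numbers 1 and 4. The labels went opposite ways, 0.74 within arrays labelled Runx1f/f and -2.41 within arrays labelled WT, with the smallest interaction adjusted p of all genes (0.0105), and the difference over both was not called (adjusted p = 0.548).

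Among 35 Eph and ephrin effectors, 3 were higher and 1 lower, or 11.4%, with a median difference of -0.0058. The adaptor Grb10 read 10.18, 10.56, 10.49 and 10.67 in numbers 2 and 3, against 9.58, 9.20, 9.04 and 9.32 in numbers 1 and 4. That separation of 1.19 ± 0.15 (SE, adjusted p = 0.00614) was the widest of the list. Stat3 differed by 0.64 (adjusted p = 0.0129) and Arhgef16, an exchange factor that works with Epha2, by 0.47 (adjusted p = 0.0203), while the Rap regulator Sipa1l1 was lower by -0.76 (adjusted p = 0.0264).

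Of 29 measured genes of other guidance systems, 1 was higher and 3 lower, or 13.8%, with a median difference of -0.04. Vegfa and Pgf, growth factors with isoforms that bind neuropilins, were lower by -0.82 ± 0.10 (SE, adjusted p = 0.00581) and -0.86 ± 0.17 (adjusted p = 0.0285). The Slit receptor Robo1 was lower by -0.46 ± 0.08 (adjusted p = 0.0157), and Hjv, a repulsive guidance molecule of muscle that serves as a co-receptor for bone morphogenetic proteins, was higher by 0.90 ± 0.17 (adjusted p = 0.0239).

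Other measures moved with the same split. Runx1 itself read 9.98, 9.89, 9.99 and 10.27 in numbers 2 and 3, against 9.35, 9.44, 9.15 and 9.25 in numbers 1 and 4, in both labels. Of 20 contractile and differentiation genes, all with a mean of at least 5, 9 were higher and 0 lower. That is a share of 45%, against 6.1% of all genes and 11.4% of genes with a mean of at least 5. The mean level of that list was 10.50 to 10.98 in numbers 2 and 3 and 9.63 to 10.13 in numbers 1 and 4, with Myog, a driver of terminal differentiation, at 0.76 (adjusted p = 0.0201). The part of the degree of differentiation in the members' differences was not tested.

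Myoblast markers were present on every array, with list means of 9.89 to 9.95 in numbers 2 and 3 and 9.99 to 10.08 in numbers 1 and 4. Of these 7 markers 1 was called: Myf5, an early myogenic factor, was lower by -0.89 (adjusted p = 0.00808). Differences were positive in 3 of the 7, up to 0.25, so this list had no single direction. Endothelial, Schwann and neural, and leukocyte lists, cells in which several members are also used, had 0 called genes of 7, 5 and 7. Their list means were 3.48 to 3.5, 3.52 to 3.65 and 3.59 to 3.67 in numbers 2 and 3, against 3.51 to 3.53, 3.62 to 3.71 and 3.60 to 3.65 in numbers 1 and 4, and 0 of these markers averaged 5 or more. The fibroblast list, with Dcn and Pdgfra among its dim members and Col1a2 and Col3a1 above 5, had 0 of 7 called at 5.36 to 5.53 in numbers 2 and 3 and 5.36 to 5.56 in numbers 1 and 4. In the pericyte and smooth muscle list 2 of 7 were called, both higher, Cspg4 by 0.72 (adjusted p = 0.0369) and Pdgfrb by 0.59 (adjusted p = 0.0208). Both are dim, with means under 5, while the list means were 5.54 to 5.77 in numbers 2 and 3 and 5.43 to 5.63 in numbers 1 and 4. The other 5 were not called and differed by -0.49 (Rgs5) to -0.03 (Acta2), so the list did not move one way. Whether pericyte content bears on the members was not tested, and in bulk RNA fewer cells of a type and less RNA per cell cannot be told apart.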

How the data were processed

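RNA of 8 myoblast samples was measured on Affymetrix MoGene 1.0 ST arrays (1 colour, 200 ng of total RNA). The authors deposited log2 intensities, 1 per probe set and array. RMA and Partek are named without versions in the submitters' processing notes, and no label records the step that left 3 column sets with equal means. Columns were matched to samples by header. Array medians were 4.39 to 4.41, and the number of arrays limits the precision. Of 35399 rows, 21789 had 1 symbol in the platform annotation and gave 19938 genes. All 52 members matched RefSeq identifiers, and 4 had 2 probe sets.

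For each gene limma (version 3.58.1, R 4.3.3) fitted the difference between the sides (lmFit and eBayes, column set as a block, 4 residual degrees of freedom, two-sided, Benjamini-Hochberg over all genes), while the labels were fitted with genotype as the only term. On data simulated with the same equal means and 200 changed genes among 19938, this comparison recovered 98.2% to 100% of genes shifted by 1 and 100% of those shifted by 2, with 12 false calls among 211. Shifts under 1, the size seen in most called members, and differences between labels were not simulated.

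Members, lists, motifs and the split were chosen with earlier results of these data known. Genes named are the called members, the member with the widest difference in each class without a call, 8 members of prior interest, Runx1 and up to 4 called genes per list. Members, motif matches and markers named beyond this were chosen after their values were seen. Old symbols (Hfe2, Emr1) were updated through RefSeq. Replicate numbers are not said to pair samples in the labels. The alternatives are given in the closing section.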

Additional observations from a re-analysis of the deposited data

Results flagged for a closer look

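Among 84 groups of 4 values (21 named members on each side of the split and within each label), 1 held an array far from the rest. Epha3 read 3.77 in WT 4 among the numbers 1 and 4 arrays, where the others lay between 3.84 and 3.86. About 5% of such groups would be marked by chance were their values independent, and the 21 groups labelled Runx1f/f are symmetric by their equal column means and cannot be marked. This array lowers the mean of numbers 1 and 4 for a member that was higher in numbers 2 and 3; without it the difference was 0.46 (adjusted p = 0.0857).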

How the results depend on the processing

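The count of 1217 genes and 13 members called became 2945 genes and 18 members without the column set block, which claims more degrees of freedom than the columns hold. It was 358 genes and 5 members (Sema6b, Sema7a, Sema6c, Plxnb2 and Sema3c) at an adjusted p under 0.01, 502 and 6 when at least 1.5-fold was also asked, and 1156 and 8 among the 26 members with a mean of at least 5, where fewer genes are tested. Fits on 7 arrays called 456 to 1032 genes, the fewest without WT 4, with 665 without WT 2 and 507 without WT 3. They called 6 to 10 members: 6 without WT 3, 7 without WT 4 and 8 without Runx1f/f 1 or 2. Leaving out Runx1f/f 1 or 2 gives the same fit, as does leaving out Runx1f/f 3 or 4. The array left alone in its column set is taken up by that set's term, so both arrays of the set drop out of the difference. Sema6b, Sema6c, Sema7a, Sema3c and Plxnb2 were called with each array left out. Chosen after seeing the data, fits within 1 label called 1462 genes and 12 members in arrays labelled WT, and 181 genes and 3 members (Sema6b, Sema6c and Ephb3) in arrays labelled Runx1f/f. Only the fit of arrays labelled Runx1f/f carried the column set block. It thus had fewer residual degrees of freedom, and the counts of the labels cannot be compared. The 575 genes at least 1.5-fold apart without overlap were 4059 with no minimum fold, 195 at 2-fold and 537 to 624 with 1 array left out. The 35 genes with a difference between labels became 173 with label in place of column set.

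Of 352 differences of named members under other settings, 285 kept direction and call, 56 lost and 6 gained the call, and 5 changed sign. The gains were Efnb2 and Nrp2 without the column set block, Nrp1 and Nrp2 within arrays labelled WT, and Ephb3 without WT 1 and within arrays labelled Runx1f/f. The sign changes were Efna5 at 0.011, 0.079 and 0.027 without WT 1, WT 2 and WT 4 (-0.263 to 0.079 over all arrays left out in turn) and at 0.324 within arrays labelled Runx1f/f, and Nrp1 at 0.0515 there. Their cause was not tested. With the replicate block, the labelled genotypes again gave 0 called genes and 0 at an unadjusted p under 0.05, which the equal means fix. A replicate block could not be fitted to the split, since each replicate number lies on 1 side. Signal over background was not assessed, since no detection values were used. Of the 13 called members, 5 have means under 5: Sema4d, Sema5a, Plxnc1, Epha7 and Epha3.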
